A study of Mus musculus with 6 samples.

Results

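The Myc, Max and Mxd network was followed as 10 named genes among the 22180 genes that the arrays measured with an unambiguous symbol. The 10 genes were chosen by name, and all 10 had a probe. They are the activators Myc, Mycn and Mycl, the partner Max, the repressors Mxd1, Mxd3, Mxd4, Mxi1 and Mnt, and the related partner Mlx. Each was read from its brightest probe over the 6 arrays, and 1 of them, Mxi1, had a further probe.

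The samples were bone marrow LSK cells, the lineage-negative, Sca-1-positive, Kit-positive gate of blood stem cells and early progenitors. They came from C57Bl6 mice with the inducible transgene Tg(Cdh5-Cre/ERT2) crossed to Rosa 26 YFP mice, which received tamoxifen on days 1, 2 and 3 after birth and were 27 days old at collection. The transgene and the tamoxifen were common to both groups, so neither group is untreated: 3 arrays hold YFP-positive cells and 3 hold YFP-negative cells of the same gate. Cre was driven by the promoter of Cdh5, the VE-cadherin gene of endothelium, and YFP then marks a cell and its descendants. The labels do not tie the replicates to separate animals, so a p-value here measures how far these samples spread, and that spread could be technical.

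Myc family proteins bind DNA as pairs with Max at the E-box CACGTG and raise the genes of ribosome production, nucleotide synthesis and growth. Mxd proteins, Mxi1 and Mnt compete for Max at the same sites and bring in the Sin3 and histone deacetylase complex, which lowers those genes. Mlx pairs with the glucose-sensing Mondo factors Mlxip and Mlxipl, whose best known target is Txnip. In blood, Myc accompanies the exit of stem cells from quiescence, and Mxd1 accompanies myeloid differentiation.

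E-boxes also lie in promoters of the network itself, and the stretches are shown because they are the letters that Myc, Max, Mxd and Mnt proteins share as a binding site. RefSeq promoter windows of build GRCm38.p6, from 250 bases before to 50 bases after a start site, were found for 9 of the 10 members. The letters CACGTG, which read the same on both strands, occurred in 4 of these 9, namely Max, Mlx, Mnt and Mxd4. They occurred in 1561 of the 16990 tested genes with such a window (9.19%). A match describes the letters and shows no binding. The first base of the E-box lay 3 bases before the start site in Max, 40 in Mlx, 123 in Mnt and 219 in Mxd4, and capitals mark it.
Max, chr12:76962234-76962263, minus strand: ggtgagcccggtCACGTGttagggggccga
Mlx, chr11:101087238-101087267, plus strand: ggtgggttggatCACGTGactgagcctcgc
Mnt, chr11:74830789-74830818, plus strand: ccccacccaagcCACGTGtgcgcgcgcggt
Mxd4, chr5:34187912-34187941, minus strand: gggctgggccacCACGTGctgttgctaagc

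Levels are deposited log2 values, given in the order of replicates 1, 2 and 3 of a population, and the number of arrays limits their precision. Array medians lay between 3.62 and 3.68 over all probes. Arrays of one population correlated across genes, which are not independent replicates, at 0.946 to 0.968, and arrays of different populations at 0.888 to 0.924. Cdh5 stood at 11.3 to 11.8 in the YFP-positive and at 3.71 to 5.40 in the YFP-negative arrays. All 12 endothelial markers were higher in YFP-positive cells (median difference 4.35), and their median level was 9.28 to 9.98 there against 4.12 to 5.28. Of 11 stem and progenitor markers 8 were lower (median -2.29), Kit among them, at 6.86 ± 0.27 against 7.76 ± 0.20 (SD, n = 3 each). In the 6 leave-one-out fits, each of which drops 1 array, Kit never passed (adjusted p = 0.0598 to 0.148). The Sca-1 gene Ly6a was not analysed here. YFP-positive replicate 3 stood apart: its leukocyte markers lay 0.23 above the YFP-negative mean at the median, against -2.27 and -2.40 in replicates 1 and 2. Its Ptprc, the gene of the leukocyte protein CD45, measured 9.52 against 6.52 and 6.95. In bulk samples such as these, fewer cells of a type and less RNA per cell cannot be told apart.

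None of the 10 network genes passed the test between the populations, while several genes known as Myc or Mondo targets did. With limma and Benjamini-Hochberg adjustment over all genes at 0.05, 0 of 10 members were called, against 4.84% of all genes. At an unadjusted p under 0.05 there were 2, Myc and Mycn. The number called was also 0 in each of the 10 alternative fits, of which the one restricted to genes above the median level tested 9 members, without Mycl. The median difference of the 10 genes, YFP-positive minus YFP-negative, was 0.00, against -0.01 over all genes. By role, all 4 genes of the Myc and Max side had a difference below 0 (median -0.46), and all 5 Mxd, Mxi1 and Mnt genes had one above 0 (median 0.32). These signs describe uncalled differences, and several of them turned when 1 array was left out, as given below for each gene.

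**Figure D1:**
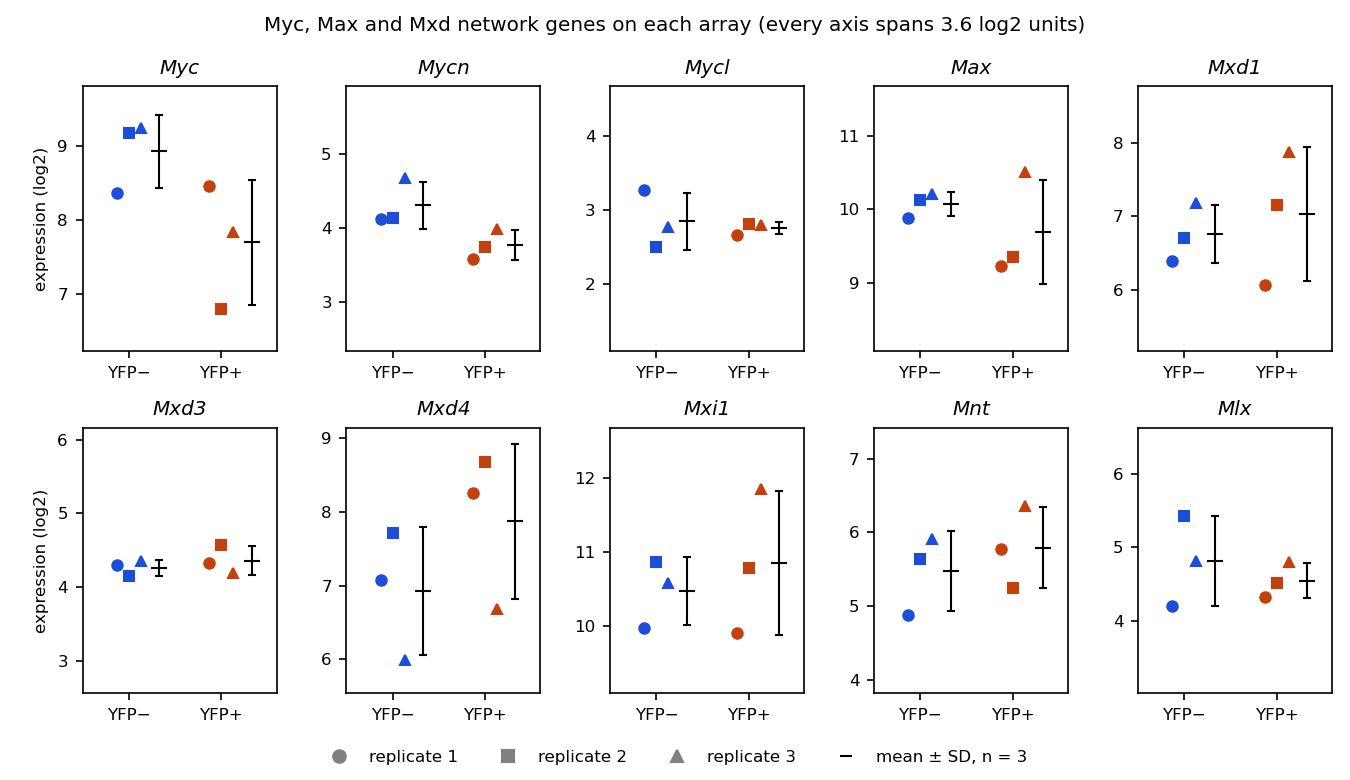
Expression (log2) of the 10 network genes on each of the 6 arrays, with YFP-negative arrays in blue, YFP-positive arrays in orange, marker shape for the replicate number and black bars for the mean ± SD of 3 arrays. The groups overlap for 9 genes, and for Mycn all 3 YFP-positive arrays (3.58 to 3.99) lie below the YFP-negative ones (4.12 to 4.68).

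Myc, the activator for which the network is named, stood at 8.47, 6.79 and 7.84 in YFP-positive cells and at 8.36, 9.18 and 9.24 in YFP-negative cells. The groups overlapped: YFP-positive replicate 1 was as high as YFP-negative replicate 1, and YFP-positive replicate 2 was the lowest array. The means were 7.70 ± 0.85 and 8.93 ± 0.49 (SD, n = 3 each). The difference was -1.23 ± 0.47 (SE), with a 95% interval from -2.37 to -0.10 and an adjusted p of 0.249. Over the leave-one-out fits the difference ranged from -1.62 to -0.78 and the adjusted p from 0.160 to 0.482, so Myc kept its sign in all 6 and passed the test in none. Its largest size came without YFP-positive replicate 1 and its smallest without YFP-positive replicate 2.

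Mycn, the family member also expressed in blood stem cells, measured 3.58, 3.74 and 3.99 in the YFP-positive arrays and 4.12, 4.13 and 4.68 in the YFP-negative arrays. It was the 1 member of 10 whose groups did not overlap, which was the case for 22.7% of all genes. The difference was -0.54 ± 0.20 (SE, 95% interval -1.03 to -0.06, adjusted p = 0.237). Its mean level was at percentile 51.8 of all genes, where a signal cannot be told from background because no detection calls were used.

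Mycl, the third activator, averaged 2.75 ± 0.08 and 2.84 ± 0.39 (SD, n = 3 each), at percentile 14.6 of all genes. The difference was -0.09 ± 0.21 (SE, 95% interval -0.59 to 0.41, adjusted p = 0.895), and its sign turned without YFP-negative replicate 1. No detection calls were used, so expression of Mycl in either population was not established.

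Max, a partner shared by the Myc and Mxd proteins, stood at 9.24, 9.35 and 10.5 in YFP-positive cells and at 9.89, 10.1 and 10.2 in YFP-negative cells. YFP-positive replicates 1 and 2 lay below all YFP-negative arrays and replicate 3 above all of them. The difference was -0.37 ± 0.35 (SE, 95% interval -1.23 to 0.48, adjusted p = 0.691). Without YFP-positive replicate 3 it was -0.78 and the adjusted p was 0.0544, the lowest of the 6 leave-one-out values (0.0544 to 0.920). The leukocyte markers split the YFP-positive arrays the same way, with replicates 1 and 2 low and replicate 3 near the YFP-negative level. The part of leukocyte content in the level of Max was not tested.

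**Figure D2:**
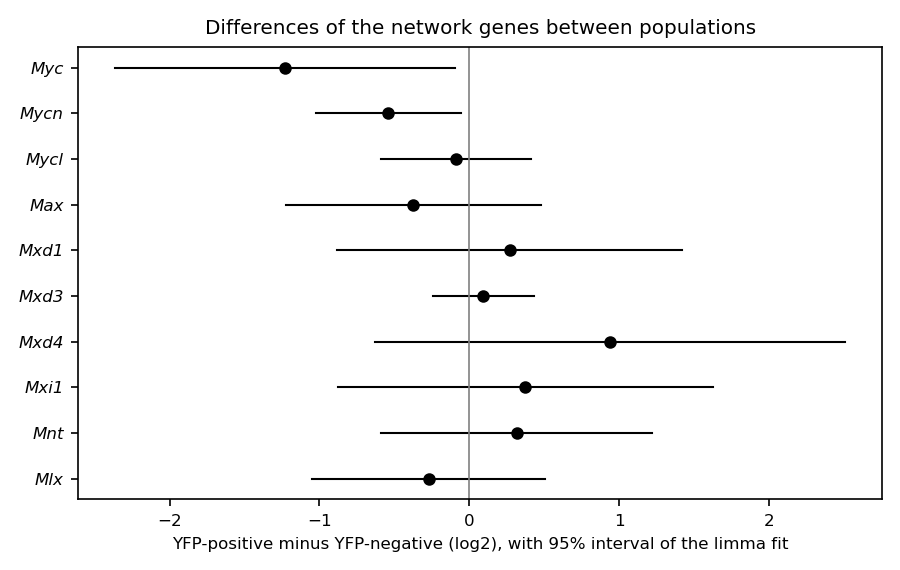
Difference of each network gene, YFP-positive minus YFP-negative (log2), as points with the 95% interval of the limma fit over 3 arrays per group. The intervals of Myc (-2.37 to -0.10) and Mycn (-1.03 to -0.06) lie below 0 before adjustment for all genes, and the other 8 include 0.

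Among the repressors, Mxd4 had the largest difference and the widest interval. It stood at 8.26, 8.68 and 6.68 in YFP-positive cells and at 7.08, 7.72 and 5.996 in YFP-negative cells. Replicate 3 was the lowest array in each population, and the groups overlapped. The difference was 0.94 ± 0.64 (SE, 95% interval -0.63 to 2.51, adjusted p = 0.566). Leaving out 1 array gave 0.47 to 1.54 (adjusted p = 0.212 to 0.817). The smallest value, 0.47, came without YFP-negative replicate 3 and the largest, 1.54, without YFP-positive replicate 3.

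Mxd1, the member tied to myeloid differentiation, measured 6.06, 7.16 and 7.87 in the YFP-positive arrays and 6.40, 6.71 and 7.18 in the YFP-negative arrays. Replicate 3 was the highest and replicate 1 the lowest array in both populations. The difference was 0.27 ± 0.47 (SE, 95% interval -0.88 to 1.42, adjusted p = 0.854), and without YFP-positive replicate 3 it was -0.15 (adjusted p = 0.912, range 0.393 to 0.970). The median level of the 12 neutrophil markers had the same order. It was 8.44, 8.79 and 10.7 in YFP-positive and 6.26, 7.36 and 10.2 in YFP-negative replicates 1, 2 and 3. Not every marker had this order: in the YFP-negative arrays Mpo measured 10.2, 10.4 and 10.1 and Prtn3 5.85, 5.71 and 5.61. No neutrophil marker passed limma's test between populations (0 of 12, and 1 at an unadjusted p under 0.05). The part of neutrophil RNA in the level of Mxd1 or Mxd4 was not tested.

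Mxi1, the repressor first found as a Max interactor, is a case in which the probes disagreed. Its brightest probe measured 9.90, 10.8 and 11.9 in the YFP-positive arrays and 9.97, 10.9 and 10.6 in the YFP-negative arrays, a difference of 0.37 ± 0.51 (SE, 95% interval -0.88 to 1.63, adjusted p = 0.805). Its dimmer probe measured 5.35, 5.41 and 6.95 against 6.95, 6.95 and 6.24, a difference of -0.81 between means of 5.91 ± 0.91 and 6.72 ± 0.41 (SD, n = 3 each). The mean of both probes differed by -0.22. YFP-positive replicate 3 was the highest of the YFP-positive arrays on both probes, and without it the brighter probe's difference turned to -0.13. The direction of Mxi1 is therefore not settled by these arrays. The isoforms that the probes read were not analysed here.

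Mxd3, a repressor linked to proliferating cells, averaged 4.36 ± 0.20 and 4.26 ± 0.11 (SD, n = 3 each). Its difference of 0.09 ± 0.14 (SE) had the narrowest interval of the 10 genes, -0.24 to 0.43 (adjusted p = 0.819), and turned to -0.01 without YFP-positive replicate 2. The mean level of Mxd3 was at percentile 57.4 of all genes and no detection calls were used. The narrow interval therefore does not show that an expressed gene was unchanged. Mnt, the broadly expressed antagonist of Myc, measured 5.78, 5.25 and 6.36 against 4.88, 5.64 and 5.91. That is a difference of 0.32 ± 0.37 (SE, 95% interval -0.59 to 1.22, adjusted p = 0.762), and without YFP-negative replicate 1 it was 0.02. Mlx measured 4.32, 4.52 and 4.80 against 4.21, 5.43 and 4.81. Its difference was -0.27 ± 0.32 (SE, 95% interval -1.05 to 0.51, adjusted p = 0.764), and without YFP-negative replicate 2 it was 0.04. The YFP-negative arrays of Mlx spanned a wider range than the YFP-positive ones, which all lay inside it.

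In the arm around Mlx, 2 Mondo targets of the arrestin family, Txnip and Arrdc4, were higher in YFP-positive cells. Of 6 genes in this arm, 2 rose, 0 fell and 4 did not pass (median 0.37, with 2.88% of all genes called higher). In the fit restricted to genes above the median level, 2 of 5 rose, against 701 of all 11090 genes there. Txnip, which encodes the thioredoxin-interacting protein that limits glucose uptake, measured 11.7, 11.4 and 11.2 in the YFP-positive and 10.1, 9.73 and 9.56 in the YFP-negative arrays. All YFP-positive arrays were above all YFP-negative ones, and the gene rose 3.06-fold (1.61 ± 0.20 SE, adjusted p = 0.0122). Arrdc4, its relative in glucose uptake control, measured 6.75, 7.19 and 7.58 against 4.78, 5.59 and 4.45 and rose 4.71-fold (2.23 ± 0.35 SE, adjusted p = 0.0219). Txnip missed the threshold in 1 of 6 leave-one-out fits, the one without YFP-negative replicate 2 (adjusted p = 0.0151 to 0.0559). Arrdc4 missed it in 3, those without YFP-positive replicate 2, YFP-negative replicate 1 and YFP-negative replicate 3 (0.0232 to 0.0905). Of the Mondo factors themselves, Mlxip measured 7.95 ± 0.28 against 7.48 ± 0.44 (SD, n = 3 each, adjusted p = 0.458). Mlxipl, at 3.43 and 3.32, lay below the array medians and cannot be told from background. Mga, a further partner of Max, measured 7.15 ± 0.40 against 7.37 ± 0.37 (SD, adjusted p = 0.777). Pklr, the remaining gene of the arm, measured 4.30 ± 0.06 against 4.02 ± 0.09 (SD, limma adjusted p = 0.254). Its groups did not overlap, and its levels were near the array medians.

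Mondo and Mlx pairs are known to bind a doubled E-box with 5 bases between its parts, so the promoters of the 2 genes that rose were read for it. The letters CACGNG, 5 bases of any kind and CACGNG again were searched on both strands, and this motif includes any CACGTG in the same place. Of 16990 genes with a window, 12 (0.0706%) held it, Txnip among them, with its first base 85 bases before the start site. Txnip is the best known target of these factors, so its match is no independent finding. Rbbp4, of the Mxd and Mnt corepressors, also held the motif and was not called (-0.74, limma adjusted p = 0.343). The Arrdc4 window held no such pair but a single CACGTG, 193 bases before the start site. Other spellings of the doubled E-box were not searched, so a window without this one may hold another. Capitals mark the motif in each.
Txnip, chr3:96557866-96557894, plus strand: actgtgCACGAGGGCTGCACGAGcctcca
Arrdc4, chr7:68749414-68749443, minus strand: aaaggtcctgtgCACGTGcactatggtgtc

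**Figure D3:**
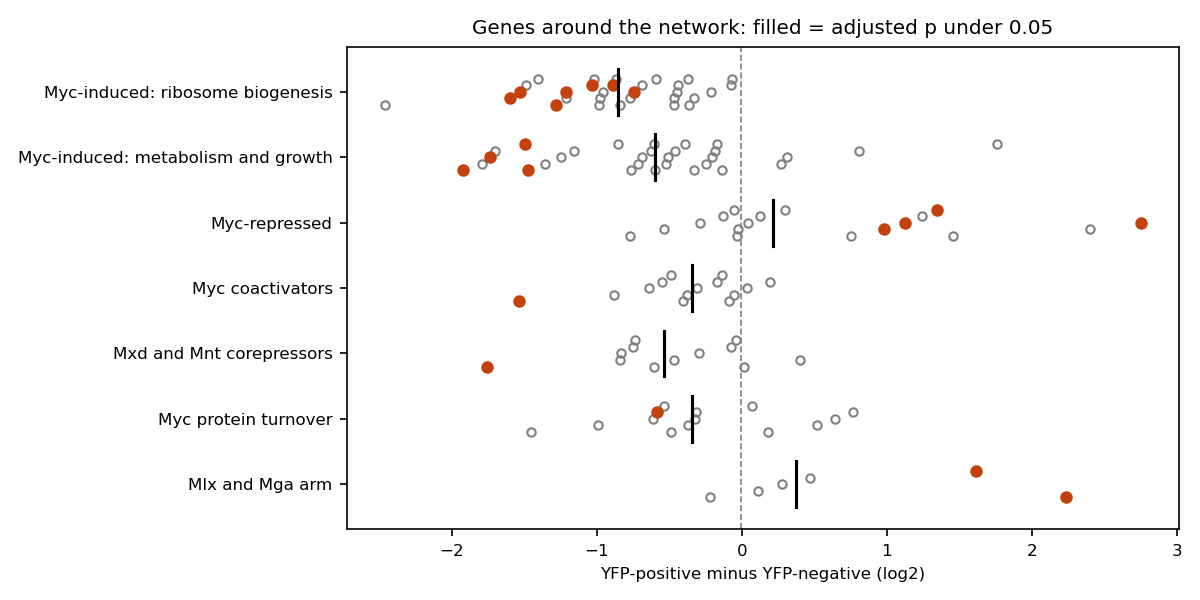
Difference (log2, YFP-positive minus YFP-negative) of every measured gene in 7 lists around the network, filled where the adjusted p was under 0.05, with a black bar at the list median and a dashed line at the median of all genes (-0.01). All 30 ribosome biogenesis genes lie below 0, with 7 filled, and the 2 filled genes of the Mlx and Mga arm, Txnip and Arrdc4, lie at 1.61 and 2.23.

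Of 30 measured ribosome biogenesis genes, the best known group that Myc raises, 7 fell in YFP-positive cells, 0 rose and 23 did not pass. All 30 had a difference below 0, against 51.3% of all genes, and the median was -0.86. Of all genes 1.96% were called lower, and of genes above the median level 3.77%. For 18 of the 30 the YFP-positive arrays all lay below the YFP-negative ones, as they did for 2643 of all 22180 genes (22.7% of all genes did not overlap in either direction). Ppan, a factor of large subunit assembly, measured 5.48, 5.64 and 6.13 against 7.34, 7.18 and 7.52 and fell 3.02-fold (-1.60 ± 0.20 SE, adjusted p = 0.0122). As the mean of its probes, Ppan differed by -0.92 and did not pass (adjusted p = 0.499). Ncl, which encodes the major nucleolar protein nucleolin, measured 10.4, 10.4 and 10.6 against 11.3, 11.2 and 11.2 and fell 1.68-fold (-0.75 ± 0.12 SE, adjusted p = 0.0224). The arrays of each population lay close together for Ncl, and the groups did not overlap. With quantile normalization its difference was -0.63 and it missed the threshold (adjusted p = 0.0546).

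Wdr43, a small subunit processing factor, fell 2.31-fold (adjusted p = 0.0216), from 8.92 ± 0.17 to 7.71 ± 0.30 (SD, n = 3 each). Dkc1, the pseudouridine synthase dyskerin, fell 2.89-fold (adjusted p = 0.0409). Polr1c, a subunit of RNA polymerases I and III, fell 2.04-fold (adjusted p = 0.0433), and Nop56, a core protein of box C/D particles, 1.85-fold (adjusted p = 0.0434). Nop58, its partner in those particles, fell 2.43-fold (adjusted p = 0.0457) and is named after its value was seen. Nop56 did not pass as the mean of its probes (-0.84, adjusted p = 0.222). Npm1, the abundant nucleolar protein, measured 11.6 ± 0.13 against 12.1 ± 0.06 (SD, adjusted p = 0.0868), and Ubtf, an activator of polymerase I, 7.12 ± 0.52 against 7.48 ± 0.37 (adjusted p = 0.663). The calls were sensitive to single arrays. Ppan passed in 5 of 6 leave-one-out fits and missed the threshold without YFP-negative replicate 1 (adjusted p = 0.00551 to 0.0534). Wdr43 passed without YFP-positive replicate 1, Ncl without YFP-positive replicate 3, Nop56 without YFP-negative replicate 1 and Nop58 without YFP-positive replicates 2 and 3, and in no other such fit. Dkc1 and Polr1c passed in none of the 6. The highest adjusted p of these genes was 0.145. The number of genes called was 1 to 5 in these fits, 1 being without YFP-negative replicate 2.

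**Figure D4:**
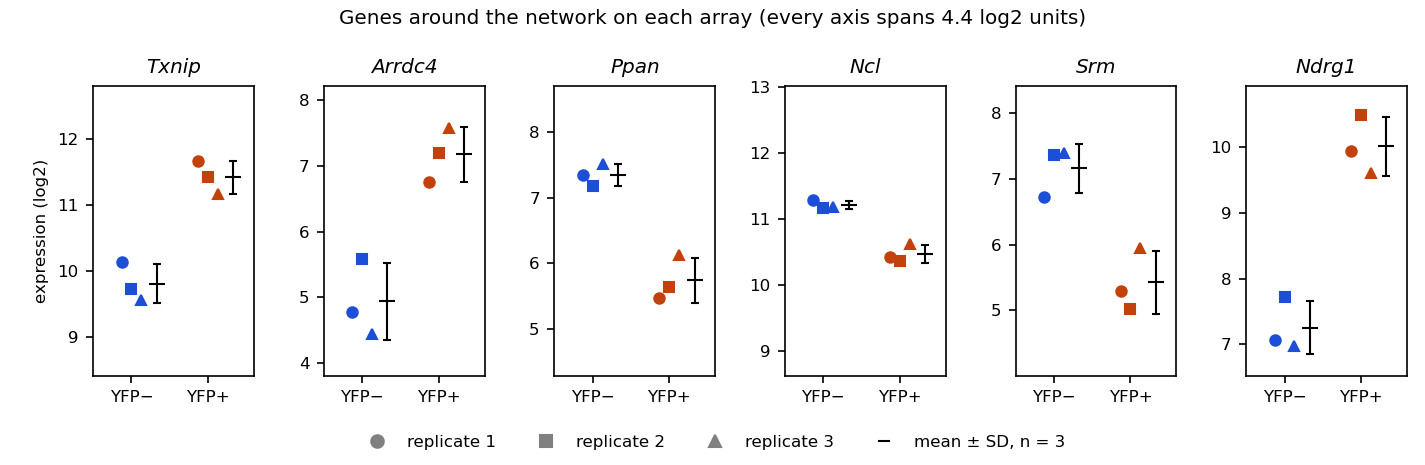
Expression (log2) on each array of Txnip and Arrdc4, Mondo targets, of Ppan, Ncl and Srm, genes raised by Myc, and of Ndrg1, a gene lowered by Myc, drawn as for the network genes with every axis spanning the same range. In each panel the 3 YFP-positive arrays and the 3 YFP-negative arrays do not overlap.

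Of 30 measured growth and metabolism genes that Myc raises, 4 fell, 0 rose and 26 did not pass, against 1.96% of all genes called lower and 3.77% of those above the median level. The median was -0.60, and 26 of the 30 were below 0, against 51.3% of all genes. Differences ran from -1.92 to 1.76, and the highest was not called. The YFP-positive arrays all lay below the YFP-negative ones for 14 of the 30 and above them for 1. Over all 22180 genes these counts were 2643 and 2385. Srm, the spermidine synthase of the polyamine pathway, measured 5.30, 5.02 and 5.95 against 6.73, 7.36 and 7.39 and fell 3.33-fold (-1.74 ± 0.30 SE, adjusted p = 0.0307). Nme1, a nucleoside diphosphate kinase whose probe may also read its near-identical neighbour Nme2, fell 3.79-fold (adjusted p = 0.0433), Umps, of pyrimidine synthesis, 2.81-fold (adjusted p = 0.0469), and Paics, of purine synthesis, 2.78-fold (adjusted p = 0.0479). All 4 had non-overlapping groups. Odc1, the first enzyme of polyamine synthesis and a classical Myc target, measured 8.74 ± 0.75 against 8.94 ± 0.25 (SD, n = 3 each, adjusted p = 0.866). Cdk4 measured 7.51 ± 0.13 against 8.76 ± 0.78 (SD, adjusted p = 0.157) and Ccnd2, a D-type cyclin, 7.17 ± 0.51 against 7.88 ± 0.08 (SD, adjusted p = 0.225). Ldha and Tert were at 3.99 and 3.18 in YFP-positive and at 4.16 and 3.31 in YFP-negative arrays, too near the array medians to be read. Srm, Nme1 and Paics each passed in 1 of 6 leave-one-out fits and Umps in 0 (highest adjusted p = 0.151). With quantile normalization Nme1 and Umps also missed the threshold (adjusted p = 0.0501 and 0.0535). Of the genes in this list, 6 were called when YFP-positive replicate 3 was dropped, 5 lower and 1 higher, with 2 of them among the 4 named. In the remaining fits 1 was called when replicate 1 of that population was left out, and 0 in the other 4.

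Among the target genes that fell, the letters CACGTG were found in the promoter windows of Wdr43, Nme1 and Paics, shown because these are the fallen genes that carry the site. Of ribosome biogenesis genes with a window 5 of 25 held them, and of growth and metabolism genes 9 of 26 (34.6%), against 9.19% of all tested genes. Among genes reported as lowered by Myc 4 of 16 held them, and in the Mlx and Mga arm 2 of 6. The counts were 2 of 14 for coactivators, 1 of 10 for corepressors and 0 of 11 for turnover genes. The letters were therefore not confined to the lists that Myc raises. In Wdr43 the first base of the site was base 18 of the transcript. In Nme1, which has 2 windows, it lay 29 and 18 bases before the start sites, and in Paics 203 bases before.
Wdr43, chr17:71616220-71616249, plus strand: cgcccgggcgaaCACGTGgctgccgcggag
Nme1, chr11:93968037-93968066, minus strand: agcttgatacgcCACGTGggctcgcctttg
Nme1, chr11:93968273-93968302, minus strand: gctgcggggaacCACGTGaggccggggagc
Paics, chr5:76951087-76951116, plus strand: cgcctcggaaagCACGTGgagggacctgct

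Of 18 measured genes reported as lowered by Myc, 4 rose, 0 fell and 14 did not pass, against 2.88% of all genes called higher. In the fit restricted to genes above the median level, 4 of 14 rose, against 701 of all 11090 genes there. The median was 0.21, and 11 of the 18 were above 0, against 10807 of all 22180 genes. Ndrg1, a stress and differentiation gene, measured 9.94, 10.5 and 9.61 against 7.07, 7.72 and 6.97 and rose 6.74-fold (2.75 ± 0.29 SE, adjusted p = 0.00698). It passed in all 6 leave-one-out fits. Tgfbr2, which encodes a TGF-beta receptor, rose by 2.54-fold (adjusted p = 0.0274), Btg1, an antiproliferative gene, 1.97-fold (adjusted p = 0.0307) and Cdkn1c, the cyclin kinase inhibitor p57, 2.18-fold (adjusted p = 0.0374). Each of these 3 passed in 1 of those fits (highest adjusted p = 0.109). The cell cycle inhibitors most often cited as Myc-repressed did not pass: Cdkn1a averaged 8.11 ± 0.31 against 8.16 ± 0.72 (SD, adjusted p = 0.970) and Cdkn1b 6.71 ± 0.40 against 7.48 ± 0.84 (SD, n = 3 each, adjusted p = 0.473).

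**Figure D5:**
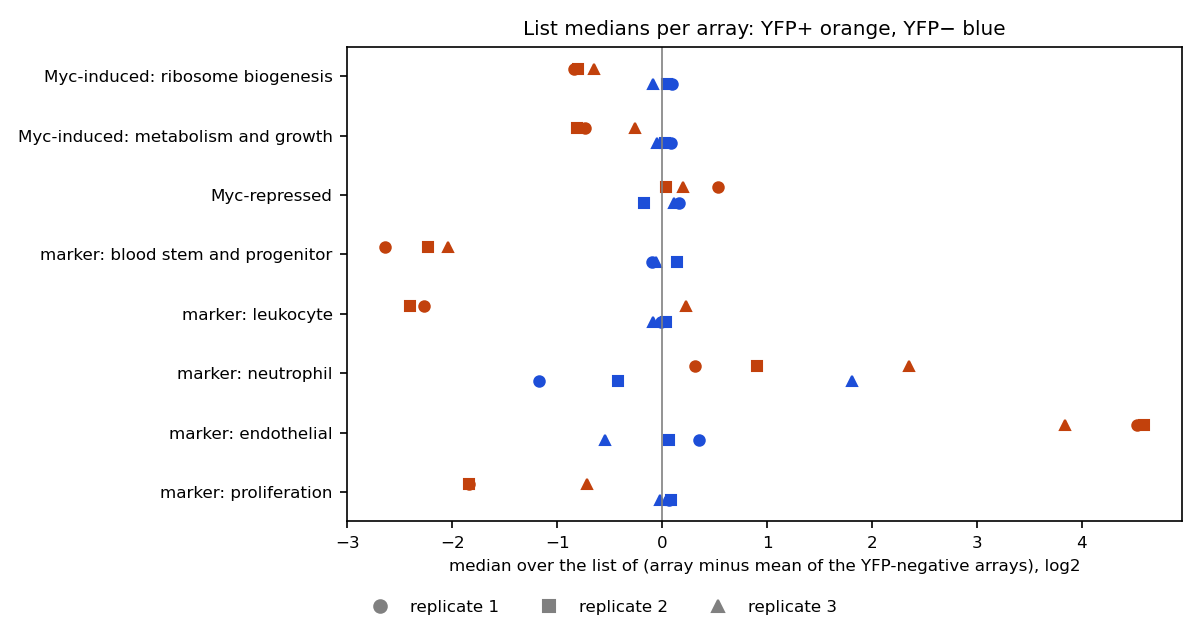
For each array, the median over a list of the difference from the mean of the YFP-negative arrays (log2), with YFP-positive arrays in orange, YFP-negative arrays in blue and marker shape for the replicate number. Ribosome biogenesis medians of the YFP-positive arrays lie between -0.84 and -0.64, while their leukocyte medians split between -2.40 and 0.23 and their endothelial medians lie between 3.84 and 4.60.

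Markers of other cell types and of division also differed between the populations. On the YFP-positive arrays the ribosome biogenesis median was -0.84, -0.80 and -0.64 relative to the YFP-negative mean, and that of growth and metabolism genes -0.73, -0.81 and -0.26. Beside them, the 11 proliferation markers had medians of -1.84, -1.84 and -0.71, with 3 of 11 called lower and all 11 below 0. The 11 stem and progenitor markers had -2.64, -2.23 and -2.04 (8 of 11 called lower). The 12 leukocyte markers had -2.27, -2.40 and 0.23 (1 of 12 called lower) and the 12 endothelial markers 4.53, 4.60 and 3.84. The Myc-repressed list had medians of 0.54, 0.04 and 0.20. The part of cell composition and of division in the target levels was not tested. Erythroid markers were called in 0 of 6 with limma (2 at an unadjusted p under 0.05), B lineage markers fell in 1 of 7, and macrophage markers rose in 1 of 8, that being Vcam1, which endothelium also makes.

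The protein partners of the network and the genes of Myc turnover had 1 call in each of 3 lists, all lower in YFP-positive cells. Of all genes 1.96% were called lower and 4.84% in either direction, so 1 call in a list is near the background. Below 0 were 12 of 14 coactivators, 10 of 12 corepressors and 9 of 14 turnover genes, against 51.3% of all genes. The YFP-positive arrays all lay below the YFP-negative ones for 4, 6 and 3 of them, against 2643 of all 22180 genes. For 2 turnover genes they all lay above. Differences below 0 were therefore not confined to the genes that Myc raises. Of 14 coactivators recruited by Myc, 1 fell and 13 did not pass (median -0.34). It was Ruvbl1, an ATPase of chromatin remodelling complexes, which measured 7.15, 7.47 and 6.79 against 8.43, 8.94 and 8.64 and fell 2.89-fold (-1.53 ± 0.22 SE, adjusted p = 0.0178). Ruvbl1 missed the threshold in 3 leave-one-out fits, those without YFP-positive replicate 1, YFP-negative replicate 2 and YFP-negative replicate 3 (adjusted p = 0.0264 to 0.0642). Of 12 genes of the Sin3 and histone deacetylase complex, through which Mxd proteins repress, 1 fell and 11 did not pass (median -0.54). Rbbp7, a histone-binding subunit, measured 7.39, 8.13 and 7.85 against 9.53, 9.61 and 9.51 and fell 3.38-fold (-1.76 ± 0.20 SE, adjusted p = 0.00832), and it passed in all 6 leave-one-out fits. Without YFP-positive replicate 3 the list had 3 calls, 2 lower and 1 higher. Sin3a, the scaffold, measured 6.77 ± 0.16 against 6.81 ± 0.10 (SD, n = 3 each, adjusted p = 0.926).

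Of 14 genes acting on Myc protein stability, 1 fell and 13 did not pass (median -0.35). Usp37, a deubiquitinase of Myc, fell by 0.59 ± 0.12 (SE) on the log2 scale (adjusted p = 0.0494). It missed the threshold in every leave-one-out fit (0.0884 to 0.137) and with quantile normalization (0.0576). Fbxw7, the ubiquitin ligase subunit that marks Myc for degradation, measured 3.92 ± 0.15 against 4.41 ± 0.34 (SD, n = 3 each, adjusted p = 0.279), near the array medians. Gsk3b, a kinase that phosphorylates Myc ahead of that step, measured 7.70 ± 0.13 against 7.06 ± 0.29 (SD, adjusted p = 0.118). Arrays of RNA give no measure of Myc protein.

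The genes whose levels followed Myc most closely over the 6 arrays, among those above the median level and without predicted genes and small RNAs, were Polr3k, Vdac1, Nop53 and Tedc1. Their Pearson correlations with Myc were 0.991, 0.988, 0.985 and 0.980. Polr3k is a subunit of RNA polymerase III, Vdac1 the channel of the outer mitochondrial membrane and Nop53 a ribosome biogenesis factor. Each was lowest in YFP-positive replicate 2, like Myc. The 4 were picked for their likeness to Myc, so the shared low array and the high correlations follow from that choice. There were 11090 genes above the median level, before predicted genes and small RNAs were removed. None of the 4 passed limma's test between populations (adjusted p = 0.177 to 0.461, with Polr3k and Vdac1 at an unadjusted p under 0.05). The 6 points share their arrays and fall into 2 populations, so these values describe likeness over these arrays.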

How the data were processed

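Total RNA (500 pg per sample, per the labels' protocols) was amplified and hybridised to 6 arrays, 3 per population. The deposited table holds log2 expression values of 41345 probes. The scale and its base were read from the values (1.53 to 13.7). The submitters' processing notes name Partek. How background was corrected and probes were normalized is not given in the sources used here. Of the probes, 23521 had 1 gene symbol, 1814 several and 16010 none in the platform annotation. Symbols were checked by gene identifier against RefSeq GRCm38.p6 (0 changed). The files' own build is not given in the sources used here, so coordinates belong to the RefSeq promoter windows. Each gene was represented by its probe of highest mean.

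Differences were fitted with limma 3.58.1 in R 4.3.3 (lmFit, eBayes, population as the only term, two-sided, Benjamini-Hochberg over 22180 genes, no filter on level), after the code was tested on simulated data. Alternatives were quantile normalization, the mean of a gene's probes, genes above the median level, the replicate number as a block, and leaving out each array. The members and gene lists were chosen from general knowledge, with earlier results of these data known. Beside the 10 members, the genes named are those past the test in each list (at most 6 of smallest p), Cdh5, Kit, Ptprc and the 4 genes most alike to Myc. Further list members, such as Npm1, Ubtf, Odc1, Cdk4, Cdkn1a, Sin3a, Fbxw7 and Gsk3b, are named for their known roles outside that rule. Nop58, which passed the test beyond the 6 of smallest p in its list, was named after its value was seen. Pklr is named to complete its list.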

Additional observations from a re-analysis of the deposited data

How the results depend on the processing

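The number of members called was 0 in all 11 fits. Mycl was not tested in the one restricted to genes above the median level, and in the other fits no member passed. Signs of uncalled members turned in 6 cases. With the mean of its probes, Mxi1 differed by -0.22. Over the 6 fits that left out an array, differences ran from -0.26 to 0.12 for Mycl, -0.15 to 0.75 for Mxd1, -0.0116 to 0.181 for Mxd3, -0.13 to 0.85 for Mxi1 and -0.57 to 0.036 for Mlx. Counts of called genes in those fits ran from 430 to 1185 for all genes (1074 with all arrays), from 1 to 2 for the Mlx and Mga arm, 0 to 1 for coactivators, 1 to 3 for corepressors, 1 to 5 for ribosome biogenesis, 0 to 6 for metabolism and growth, 1 to 2 for Myc-repressed genes and 15 to 38 for markers, and were 0 for turnover genes. Quantile normalization gave 2 metabolism and growth genes and 0 turnover genes, and the restriction to genes above the median level also gave 0 turnover genes. In each of these cases the cause was not tested.

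The populations share replicate numbers, and deviations of same-numbered arrays from their group means correlated at 0.0985, 0.0806 and 0.167, each the highest value of both arrays. As 2 of the 3 are under 0.1, the numbers were not taken as pairs, and the pattern is a hint from the data. With the replicate number as a block, 580 genes were called. Of the lists, 1 gene of the Mlx and Mga arm (Txnip), 1 ribosome biogenesis, 2 metabolism and growth, 2 Myc-repressed and 0 turnover genes passed. Mxd4 was nearest to a call there among the members (0.94, adjusted p = 0.068).

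No detection calls were used, so Mycl, and Mycn and Mxd3 near the median level, cannot be told from background. Between genes, probe levels were ranked for percentiles, cut at the median level and set against the array medians, and differences in level between genes were not tested.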
